A study of Mus musculus with 6 samples.

Results

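Expression of 9 genes for the synthesis, transport and breakdown of retinoids was described in MitoPark mice and littermate controls, in RNA from the substantia nigra (SN). The genes were Aldh1a1, Aldh1a2, Aldh1a3 and Aldh1a7, which encode aldehyde dehydrogenases of the retinaldehyde dehydrogenase family, the retinol dehydrogenase gene Rdh10, the retinoic acid hydroxylase gene Cyp26b1, and the retinoid handling genes Rbp4, Crabp1 and Stra6. They were chosen by symbol, and all 9 were among the 24054 genes of the deposited table. Of the 9, 8 were expressed highly enough to be tested with 14568 genes in all, and Aldh1a3 was not. Of these, 7 did not pass the cutoffs used here. Aldh1a7 passed them, but it was admitted to the test only through its level in littermate controls, and the call rested on a few counts and on single mice.

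Retinol circulates bound to RBP4 and enters cells through the receptor STRA6. Retinol dehydrogenases such as RDH10 oxidize it to retinal. ALDH1A1, ALDH1A2 and ALDH1A3 oxidize retinal to retinoic acid, which activates the nuclear receptors RAR and RXR. Whether ALDH1A7 acts on retinal was not tested here. CRABP1 binds retinoic acid in the cytoplasm, and CYP26B1 breaks it down. In the midbrain, Aldh1a1 is known as a marker of a ventral group of dopaminergic (DAergic) neurons of the SN, where its product also oxidizes the reactive aldehyde formed from dopamine, while Aldh1a2 is known from the meninges.

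MitoParks carry Cre at 1 copy of the dopamine transporter (DAT) gene and loxP sites in both copies of Tfam, the gene of a factor that maintains and transcribes mitochondrial DNA, so that Tfam is deleted only in cells that express DAT. By the methods, controls carry 1 loxP copy of Tfam and no Cre and come from litters of MitoParks or of the parental strain. They are called littermate controls here, as in the study, although not each need be a littermate of a MitoPark. The labels give them as C57BL/6 and the MitoParks as transgenic mice from C57BL/6. None of the mice was treated, and the age was 16 to 17 weeks in both groups. Messenger RNA from the SN of 3 littermate controls and 3 MitoParks was sequenced, although the labels name the tissue as brain, and neither the sex of each mouse nor the litters are known here.

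The expected counts, which are reads assigned to genes by a model and need not be whole, summed to between 8140777 and 10528602 per mouse, and levels are given as CPM, which are counts scaled to a common library size, here with TMM factors. A gene was called differentially expressed where edgeR's quasi-likelihood test gave an unadjusted p below 0.05 together with more than 1.5-fold change. By this rule 84 of the 14568 tested genes were called, or 0.577%, with 0.199% called lower and 0.378% called higher in MitoParks. After Benjamini-Hochberg adjustment 0 genes were below 0.05 in this test, with 161 below 0.05 before it, whereas edgeR's exact and likelihood ratio tests left 1 gene each. The adjusted p was 0.999 for each of the 8 retinoid genes. Tfam was lower in every MitoPark than in every littermate control, at 32.9 ± 0.284 CPM against 43.3 ± 2.7 CPM (SD, n = 3 each, log2 fold change -0.40, unadjusted p = 0.00565), which is short of the fold cutoff. Slc6a3, the DAT gene, was called lower in MitoParks and gave 72.5, 65.2 and 383 CPM among littermate controls 1, 2 and 3, against 13.3, 51.0 and 40.9 CPM among MitoParks 1, 2 and 3. Values are given in this order of mice throughout. Littermate control 3 also stood apart from the other mice in most DAergic genes, so results are given with and without it where it decided them. With 3 mice per group, the smallest p that the exact permutation test (two-sided) can give is 0.1.

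Aldh1a1 and Aldh1a7 lie next to each other on chromosome 19, on opposite strands, with 0 RefSeq genes between them. Their coding sequences, both of 1503 bases, were 91.6% identical, with 126 bases that differed, whereas the other pairs of the 4 family members were between 67.4% and 68.9% identical. The pair also shared promoter sequence. Shown here are the bases from 250 to 11 before the transcript start, as given by RefSeq for mouse build GRCm38.p6, since a gene and its near copy are compared in what follows. The Aldh1a1 stretch is at chr19:20601718-20601957 on the plus strand, before the second of 2 annotated starts and within an intron of longer Aldh1a1 transcripts, and the Aldh1a7 stretch is at chr19:20727567-20727806 on the minus strand. Capitals mark runs of at least 20 aligned bases that were identical in both genes.
Aldh1a1: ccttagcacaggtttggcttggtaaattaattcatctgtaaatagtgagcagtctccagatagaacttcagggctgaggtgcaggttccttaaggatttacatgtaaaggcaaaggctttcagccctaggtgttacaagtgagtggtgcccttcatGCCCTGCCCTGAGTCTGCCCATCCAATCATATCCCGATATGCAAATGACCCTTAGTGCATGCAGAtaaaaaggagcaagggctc
Aldh1a7: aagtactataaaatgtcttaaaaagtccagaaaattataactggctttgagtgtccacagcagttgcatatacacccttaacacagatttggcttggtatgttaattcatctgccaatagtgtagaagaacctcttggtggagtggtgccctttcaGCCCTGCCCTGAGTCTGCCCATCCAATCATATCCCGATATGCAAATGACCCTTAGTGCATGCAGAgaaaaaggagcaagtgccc

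The capital run was 65 bases long and reached from 94 to 30 bases before the start in both genes. Over the whole window of 300 bases, aligned end to end, 219 of 286 aligned bases were identical, or 76.6%. Identity in this alignment was lower farther upstream. There it did not pair all similar sequence. The letters tttggcttggta and ttaattcatctg, at the far end of the Aldh1a1 stretch, are also in Aldh1a7, but nearer its start. The values upstream are therefore not a measure of how far the sequences have diverged. Between all other pairs of retinoid genes the promoters were 41.1% to 58.0% identical when aligned in the same way. The second start of Aldh1a1 was shown because its promoter had more bases identical to that of Aldh1a7. At the first start, 152 of 272 aligned bases, or 55.9%, were identical to Aldh1a7, within the range of those other pairs. Motifs were searched on both strands in windows from 250 bases before to 50 after each start, which RefSeq gave for 7 of the 9 genes. The octamer ATGCAAAT was found 56 bases before the start in both Aldh1a1 and Aldh1a7, inside the capitals, and in the Aldh1a2 promoter, against 1.74% of 32851 promoters. The letters CCAAT, which do not overlap the octamer, were found 72 bases before the start in the same pair, at a second place in each of the pair, and in the promoters of Aldh1a2, Rbp4 and Stra6, and 37.4% of promoters hold them. The letters AGGTCA, which retinoic acid receptor elements hold as a direct repeat and which are present singly in 16.3% of promoters, and the letters TAATCC, bound by bicoid-type factors such as PITX3 and present in 7.06%, were not in the windows of these 7 genes. A match or its absence in a window of this length is a description and says nothing of binding.

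**Figure D1:**
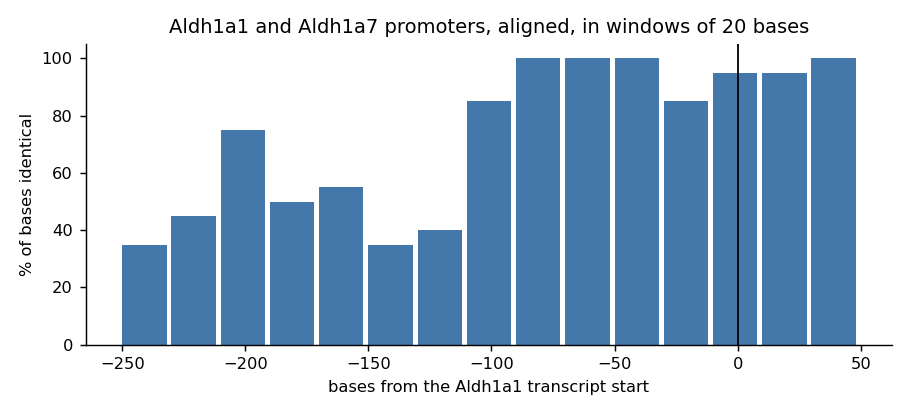
Share of bases that were identical between the aligned Aldh1a1 and Aldh1a7 promoters (y axis, %), in windows of 20 bases along the distance from the Aldh1a1 transcript start (x axis, bases, start at the black line). The 3 windows between 90 and 31 bases before the start were 100% identical, and those farther than 110 bases upstream were between 35% and 75% identical. Similar sequence that lies at another distance from the start in Aldh1a7 is not paired in this alignment.

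Aldh1a1 was by far the most abundant of the 9 genes. It gave 107, 157 and 367 CPM among littermate controls, against 102, 183 and 191 CPM among MitoParks. The groups overlapped, since MitoParks 2 and 3 were above littermate controls 1 and 2, and the highest value was that of littermate control 3. The mean was 210.3 ± 138 CPM in littermate controls and 159 ± 49.3 CPM in MitoParks (SD, n = 3 each). MitoParks differed from littermate controls by a log2 fold change of -0.40 (SE 0.40, unadjusted p = 0.342 in edgeR's quasi-likelihood test), so the difference was within the spread between mice. Leaving out littermate control 3 moved it to 0.27 (unadjusted p = 0.302).

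Most listed genes of DAergic neurons were also highest in littermate control 3. Th, for tyrosine hydroxylase, gave 55.6, 47.4 and 159 CPM among littermate controls, against 39.0, 57.0 and 65.5 CPM among MitoParks. Of the 21 listed DAergic genes, all of which were tested, 20 had a log2 fold change below 0, where 51.4% of all tested genes did, and 2 were called, Slc6a3 and the transcription factor gene Foxa1. Pitx3, 1 of the 20, was admitted to the test only through littermate controls, at a mean of 1.58 CPM against 0.319 CPM in MitoParks. The CPM of the 21 genes summed to 1890 in littermate control 3 and to between 684 and 894 in the other mice. Their median log2 fold change was -0.57, against -0.0047 over all tested genes. Without littermate control 3, 13 of 20 tested DAergic genes were below 0 and 7 above 0, the median was -0.05 and only Slc6a3 was called. In that fit 51.5% of all tested genes were below 0, and 219 of 14609 were called. Without littermate control 1 or 2 the median was -0.86 or -0.80, with 8 or 7 genes called. Over all tested genes, 133 of 14576 or 86 of 14581 were called in these fits. Without MitoPark 1, 2 or 3 the median of the DAergic genes was -0.36, -0.73 or -0.81, with 1, 3 or 1 called. Here 119 of 14623, 217 of 14634 or 62 of 14524 of all tested genes were called. In bulk tissue, differences in the number of DAergic neurons, in RNA per neuron and in the share of other tissue in each sample cannot be told apart. For Slc6a3, the copy that carries Cre in MitoParks cannot be told apart from these either.

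To see whether Aldh1a1 differed beyond these genes, its log2 level in each mouse was set against the mean log2 level of 20 DAergic genes, leaving out Slc6a3 because MitoParks carry Cre there. The log2 difference was 2.99, 3.37 and 3.42 in littermate controls and 3.74, 3.37 and 3.47 in MitoParks. The difference thus ran from 2.99 to 3.74, where the levels themselves ranged from 6.68 to 8.52 on the same log2 scale. The wider range of the levels rested mostly on littermate control 3. Without that mouse the levels ran from 6.68 to 7.58, and the range of the difference was unchanged. The mean difference was 3.26 ± 0.237 in littermate controls and 3.53 ± 0.186 in MitoParks (SD, n = 3 each), and MitoParks were higher by 0.269 on the log2 scale (p = 0.2, exact permutation test, two-sided). With Th alone as the reference it was 0.25 and with Ddc, the gene for the enzyme after tyrosine hydroxylase, 0.28 (exact permutation tests, p = 0.5 and 0.3). Pitx3, 1 of the 20 genes, had 0 counts in MitoPark 1. With 1 CPM in place of 0.1 CPM added before the log, MitoParks were higher by 0.179 (exact permutation test, p = 0.5). In the plain ratio of CPM, Aldh1a1 was between 1.92 and 3.32 times Th in littermate controls and between 2.62 and 3.22 times Th in MitoParks.

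**Figure D2:**
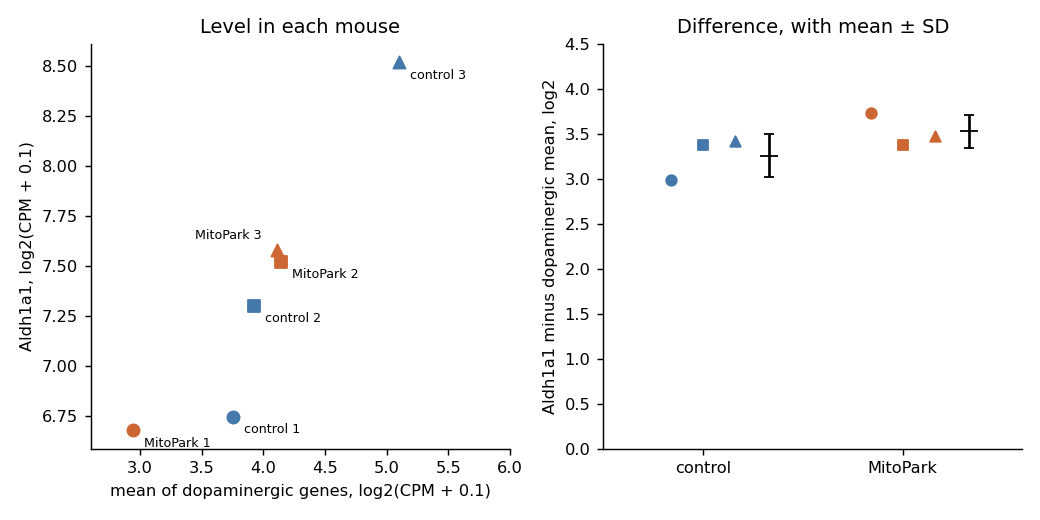
Left, log2(CPM + 0.1) of Aldh1a1 (y axis) against the mean log2(CPM + 0.1) of 20 DAergic genes (x axis), 1 point per mouse, with littermate controls in blue and MitoParks in orange. Right, the difference between both values in each mouse, with mean ± SD per group, with littermate controls from 2.99 to 3.42 and MitoParks from 3.37 to 3.74.

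Aldh1a7 was expressed at about 1% of Aldh1a1 or less. Its counts were 13, 8 and 45 among littermate controls, against 1, 10 and 2 among MitoParks, which corresponds to 1.45, 0.759 and 4.39 CPM and to 0.122, 1.01 and 0.227 CPM. MitoParks 1 and 3 had fewer than the 3 counts taken here as the limit of detection, but MitoPark 2 was above littermate control 2, so the groups overlapped. The mean was 2.2 ± 1.93 CPM in littermate controls and 0.453 ± 0.485 CPM in MitoParks (SD, n = 3 each).

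For Aldh1a7, edgeR's quasi-likelihood test gave a log2 fold change of -2.19 (SE 0.81) and an unadjusted p of 0.0241, so it passed both cutoffs. Genes were tested where the mean of either group was above 1 CPM, and Aldh1a7 met this through littermate controls alone, so a level that is lower in MitoParks was part of how it came to be tested. The filterByExpr filter and one that asked for CPM above 1 in at least 3 mice left it out. Without any filter its log2 fold change was also -2.19 (unadjusted p = 0.00993 in edgeR). In the same edgeR test the call was lost without littermate control 3 (log2 fold change -1.17, unadjusted p = 0.149), without MitoPark 1 (-1.77, unadjusted p = 0.0787) and without MitoPark 3 (-1.87, unadjusted p = 0.0796). By the exact permutation test of the log2 CPM of the 6 mice, p was 0.2.

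Because Aldh1a7 is so similar to Aldh1a1, reads could be divided between them. No stretch of 150 bases, the read length given in the methods, of the longest Aldh1a7 transcript occurred in a transcript of another gene in GENCODE M21, and the same held for the other 8 retinoid genes. Only exact matches were sought, so reads with sequencing errors were not covered. Both counts were whole in 4 of 6 mice, while littermate control 3 had 3753.97 for Aldh1a1 and 45.03 for Aldh1a7, and MitoPark 3 had 1688.03 and 2. Aldh1a7 took 1.33%, 0.480% and 1.19% of the counts of the pair in littermate controls and 0.119%, 0.548% and 0.118% in MitoParks. Its mean share was 0.999 ± 0.456% in littermate controls and 0.262 ± 0.248% in MitoParks (SD, n = 3 each, p = 0.2 by the exact permutation test), and here too MitoPark 2 was above littermate control 2. With the counts of both genes summed, the log2 fold change of Aldh1a1 was -0.42.

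Aldh1a2, which encodes the retinaldehyde dehydrogenase of the meninges, gave 7.23, 3.70 and 4.2 CPM among littermate controls, against 2.80, 6.77 and 6.00 CPM among MitoParks. The ranges overlapped over most of their length, with littermate control 1 the highest and MitoPark 1 the lowest mouse. At a log2 fold change of 0.0581 (SE 0.37, unadjusted p = 0.878, edgeR's quasi-likelihood test) the group means were close together, and the sign changed in 4 of 6 fits with a mouse left out, whose values ran from -0.18 to 0.41. A list of 17 leptomeningeal fibroblast markers, none of which was at 0 in all mice, summed to 216, 147 and 191 CPM among littermate controls, against 151, 215 and 259 CPM among MitoParks. Littermate control 1 was the highest of its group and MitoPark 1 the lowest of its group in both Aldh1a2 and this sum, and the part of meningeal tissue in Aldh1a2 was not tested.

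Aldh1a3, a further enzyme of the same reaction, received 7, 7 and 3 counts among littermate controls, against 6, 3 and 6 counts among MitoParks, after rounding. That is between 0.293 and 0.779 CPM, at or little above the level of 3 counts, and the groups overlapped. It did not pass the filter on low counts, and without that filter its log2 fold change was -0.03 (SE 0.63, unadjusted p = 0.963, edgeR's quasi-likelihood test). A difference in Aldh1a3 was not detectable at this depth.

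Rdh10, whose product makes retinal from retinol, gave 12.5, 9.39 and 9.67 CPM among littermate controls, against 9.62, 10.8 and 9.51 CPM among MitoParks, with counts between 79 and 112 per mouse. With a log2 fold change of -0.07 (SE 0.18, unadjusted p = 0.699) Rdh10 was not called, and without littermate control 1, the highest mouse, it was 0.07. All MitoParks were within the range of the littermate controls.

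Cyp26b1, the gene for retinoic acid breakdown in this list, gave 2.78, 3.04 and 4.88 CPM among littermate controls, against 3.9, 5.66 and 6.68 CPM among MitoParks. Only littermate control 3 reached into the range of the MitoParks, where it was above MitoPark 1. The mean was 3.57 ± 1.15 CPM in littermate controls and 5.41 ± 1.41 CPM in MitoParks (SD, n = 3 each), with counts between 25 and 59 per mouse. This was a log2 fold change of 0.60 (SE 0.30, unadjusted p = 0.0789, edgeR's quasi-likelihood test), so Cyp26b1 exceeded the fold cutoff but not the cutoff of p. It passed both without littermate control 3 (0.89, unadjusted p = 0.0167) and without MitoPark 1 (0.79, unadjusted p = 0.0326). Cyp26b1 was higher in MitoParks in each fit with a mouse left out. The 8 oligodendrocyte markers summed to 6773, 9516 and 17870 CPM among littermate controls, against 9288, 12018 and 15206 CPM among MitoParks. Within each group they had the same order of mice as Cyp26b1, and also as Aldh1a1. The part of oligodendrocytes in either gene was not tested. The other members of the gene's family gave no level to compare, since Cyp26a1 had at most 1 count per mouse and Cyp26c1 had none.

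Rbp4, for the retinol carrier of plasma, gave 3.67, 3.89 and 3.91 CPM among littermate controls, against 1.95, 3.33 and 3.85 CPM among MitoParks. The littermate controls lay close together, and MitoPark 1 was the lowest mouse, with 16 counts. Its log2 fold change was -0.32 (SE 0.29, unadjusted p = 0.297), and without MitoPark 1 it was -0.08. MitoPark 3 was above littermate control 1, so the groups overlapped.

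Stra6, the gene of the retinol uptake receptor, gave 1.67, 3.32 and 1.66 CPM among littermate controls, against 1.83, 1.62 and 1.81 CPM among MitoParks. Littermate control 2, with 35 counts, stood apart from the other 5 mice, which had 15 to 17 counts. Stra6 had a log2 fold change of -0.35 (SE 0.37, unadjusted p = 0.369), and without littermate control 2 it was 0.07. Of 12 choroid plexus markers, none was at 0 in all mice, and their sum of 252 CPM in the same mouse compared with 61.9 to 122 CPM in the others. Most of that gap was Ttr, since without it the other 11 markers summed to 109, 121 and 58.1 CPM among littermate controls, against 99.4, 99.0 and 89.1 CPM among MitoParks. Ttr, the gene of transthyretin, a carrier that binds RBP4, was at 131 CPM in littermate control 2 and between 0.852 and 22.9 CPM in the other mice. The part of choroid plexus in the Stra6 value was not tested.

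Crabp1, which encodes a retinoic acid binding protein, gave 8.46, 8.54 and 0.391 CPM among littermate controls, against 4.63, 7.17 and 4.87 CPM among MitoParks. Littermate control 3 had 4 counts, where the other mice had between 38 and 90. With that mouse, Crabp1 had a log2 fold change of -0.05 (SE 0.69, unadjusted p = 0.944). Without it, the log2 fold change was -0.61 (unadjusted p = 0.0396 in edgeR), past both cutoffs, and each MitoPark was then below each of the remaining littermate controls. The sums of DAergic and of oligodendrocyte markers were highest in that mouse, and their part in its Crabp1 value was not tested. The gene was called or not according to 1 mouse, and limma-voom with all 6 mice put it at 0.85 on the log2 scale (unadjusted p = 0.372).

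**Figure D3:**
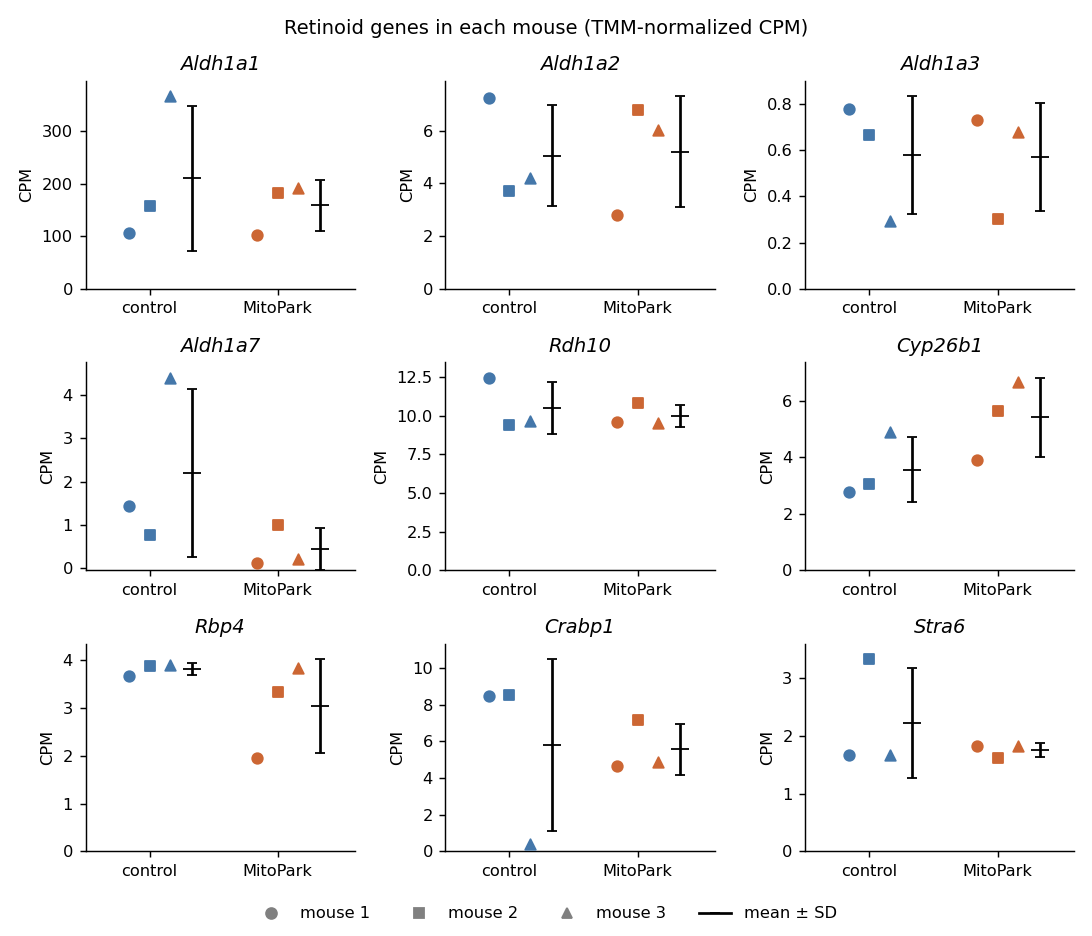
CPM (y axes, each with its own scale) of the 9 retinoid genes in each of 3 littermate controls (blue) and 3 MitoParks (orange), with mean ± SD beside the points and the mouse number as the symbol. Littermate control 3 is the highest mouse for Aldh1a1 (367 CPM) and Aldh1a7 (4.39 CPM) and the lowest for Crabp1 (0.391 CPM), and the groups overlap in all 9 genes.

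The groups overlapped for each of the 9 genes, where 4.71% of all tested genes had groups that did not overlap, 2.28% with MitoParks lower and 2.43% with MitoParks higher. Among the 8 tested genes, 6 had a log2 fold change below 0 and 2 above 0, with a median of -0.196. Over all tested genes 51.4% were below 0, with a median of -0.0047. Aldh1a7, admitted only through littermate controls, was 1 of the 6. With a mouse left out, from 4 (without littermate control 1) to 7 (without MitoPark 2) of the 8 were below 0. In these fits 50.1% and 48.1% of all tested genes were below 0.

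**Figure D4:**
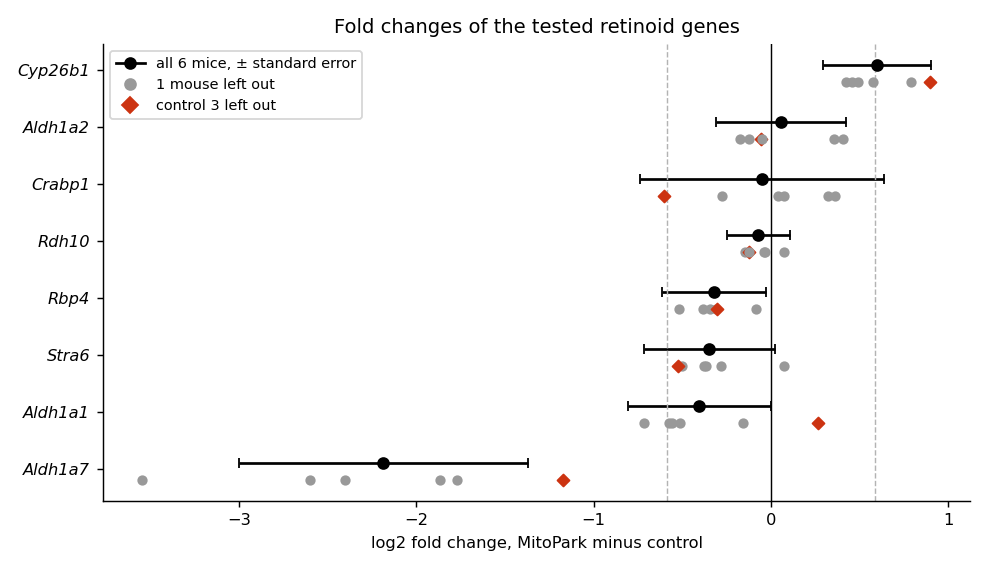
Log2 fold change (x axis, MitoPark minus control) of the 8 tested retinoid genes with all 6 mice (black, ± standard error), with 1 mouse left out (grey) and without littermate control 3 (red diamonds), and the 1.5-fold cutoffs as dashed lines. Without littermate control 3, Aldh1a1 moves from -0.40 to 0.27, Aldh1a7 from -2.19 to -1.17 and Crabp1 from -0.05 to -0.61.

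To compare levels between genes, CPM was divided by the length of the longest annotated transcript in kilobases. By the median over 6 mice the order was Aldh1a1, at 72.3 CPM per kilobase, then Crabp1 at 7.51, Rbp4 at 3.24, Rdh10 at 2.69, Aldh1a2 at 2.25, Cyp26b1 at 0.977, Stra6 at 0.566, Aldh1a7 at 0.428 and Aldh1a3 at 0.195. The lowest mouse for Aldh1a1, at 43.3 CPM per kilobase, was above the highest for any other gene, 10.6 for Crabp1. Every other pair of neighbours in this order overlapped in their ranges over the mice. Within a mouse, Rdh10 was above Aldh1a2 and Aldh1a2 above Cyp26b1 in all 6 mice, although Rdh10 and Aldh1a2 were both at 2.65 CPM per kilobase in MitoPark 3. The remaining pairs of neighbours changed places in at least 1 mouse.

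The genes with the most similar pattern over the 6 mice were sought among 12018 other genes with a mean of at least 5 CPM, by Pearson's r of the log2 level. For Aldh1a1 these were Yif1a, Insig1 and Pex5l, with r between 0.9945 and 0.9983, and 358 genes had an r above 0.9. Yif1a varied over a much smaller range, from 12.35 to 15.04 CPM. For Aldh1a7 they were Fam122b, Anks1b and Hiat1 (0.9737 to 0.9888), and for Cyp26b1 Bgn, Acsf2 and Rbms2 (0.9769 to 0.9923).

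For Crabp1 the closest was Gpr50, the gene of an orphan receptor related to melatonin receptors, with 8.79, 6.83 and 0.68 CPM among littermate controls, against 5.97, 6.87 and 5.66 CPM among MitoParks, followed by Col23a1 and Ttc26 (r from 0.969 to 0.9904). Nufip2, Dennd5b and Arhgef28 were closest to Aldh1a2, 2700049A03Rik, Ppp1r12a and Bbs1 to Rdh10, Fert2, Zxda and Zfp287 to Rbp4, and Mrpl17, Serpinb6a and Lrrc48 to Stra6, all with r between 0.9718 and 0.9962. These values describe the 6 libraries and were not tested.

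Of 45 other genes of the retinoid pathway, 44 were in the table and 28 were tested, of which 17 had a log2 fold change above 0 and 11 below 0, with a median of 0.0470. Over all tested genes 51.4% were below 0. Rdh1 was called, higher in MitoParks, which is 1 of 28 where 0.378% of all tested genes were called higher and 0.577% in either direction. Rdh1, a retinol dehydrogenase gene, gave 3.45, 2.47 and 3.81 CPM among littermate controls, against 4.14, 4.75 and 11.2 CPM among MitoParks, so that the groups did not overlap and MitoPark 3 stood apart. In edgeR it had a log2 fold change of 1.05 (SE 0.39, unadjusted p = 0.0253, adjusted p = 0.999). In the same edgeR test it was 0.46 without MitoPark 3 (unadjusted p = 0.151), and the call was also lost without littermate control 1 (1.10, unadjusted p = 0.0522) and without littermate control 2 (0.88, unadjusted p = 0.0856). Of the 150-base stretches of its longest transcript, 9.28% occurred in other genes of the same family, so part of its counts is uncertain.

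Among carriers and storage genes, 5 of 7 tested had a log2 fold change above 0 and none was called. Lrat, whose product stores retinol as esters, was higher in each MitoPark (1.7 to 1.83 CPM) than in each littermate control (1.11 to 1.66 CPM), with a log2 fold change of 0.41 that did not pass the test (unadjusted p = 0.25). Rpe65, the gene of the isomerase of the visual cycle, was not tested, at 1 to 2 counts in littermate controls and 2 to 7 counts in MitoParks, groups that did not overlap once scaled to library size. Fabp5, a fatty acid carrier that also binds retinoic acid, was the most abundant of this group, at 94.3 ± 19.2 CPM in littermate controls and 88.6 ± 5.79 CPM in MitoParks (SD, n = 3 each).

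Of 11 tested genes for the interconversion of retinol and retinal, 6 had a log2 fold change above 0 and 5 below 0. Rdh12, a retinal reductase gene, was lower in each MitoPark (1.41 to 1.7 CPM) than in each littermate control (1.80 to 2.23 CPM), with a log2 fold change of -0.37 and an unadjusted p of 0.259. Adh5, the gene of an alcohol dehydrogenase found in most tissues, was the most abundant, at 55.1 ± 4.33 CPM in littermate controls and 54.7 ± 2.12 CPM in MitoParks (SD, n = 3 each).

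All 6 nuclear receptor genes were tested, and none was called. Rxra, the most abundant, averaged 58.1 ± 7.8 CPM in littermate controls and 57.3 ± 5.06 CPM in MitoParks (SD, n = 3 each), which is a log2 fold change of -0.02 (SE 0.13). The log2 fold changes of the 6 lay between -0.04 and 0.14. Of the 4 tested genes taken as targets of retinoic acid, 2 had a log2 fold change above 0 and 2 below 0, and none was called. Tgm2, for tissue transglutaminase, was the most abundant of them by the mean over all 6 mice, although Nrip1 was higher in littermate controls at 12.8 CPM. It was at 12.1 ± 1.02 CPM in littermate controls and 15.01 ± 5.15 CPM in MitoParks (SD, n = 3 each, unadjusted p = 0.234).

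None of the 14 other aldehyde dehydrogenase genes was called, with 10 log2 fold changes above 0, 4 below 0 and a median of 0.0306, where 51.4% of all tested genes were below 0. Aldh5a1, which encodes the succinate semialdehyde dehydrogenase of GABA breakdown, was the most abundant, at 185 ± 20.2 CPM in littermate controls and 193 ± 3.39 CPM in MitoParks (SD, n = 3 each). Aldh16a1 was higher in each MitoPark (4.99 to 5.35 CPM) than in each littermate control (3.04 to 4.78 CPM), with a log2 fold change of 0.36 and an unadjusted p of 0.176. This list summed to between 733 and 779 CPM in all 6 mice.

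**Figure D5:**
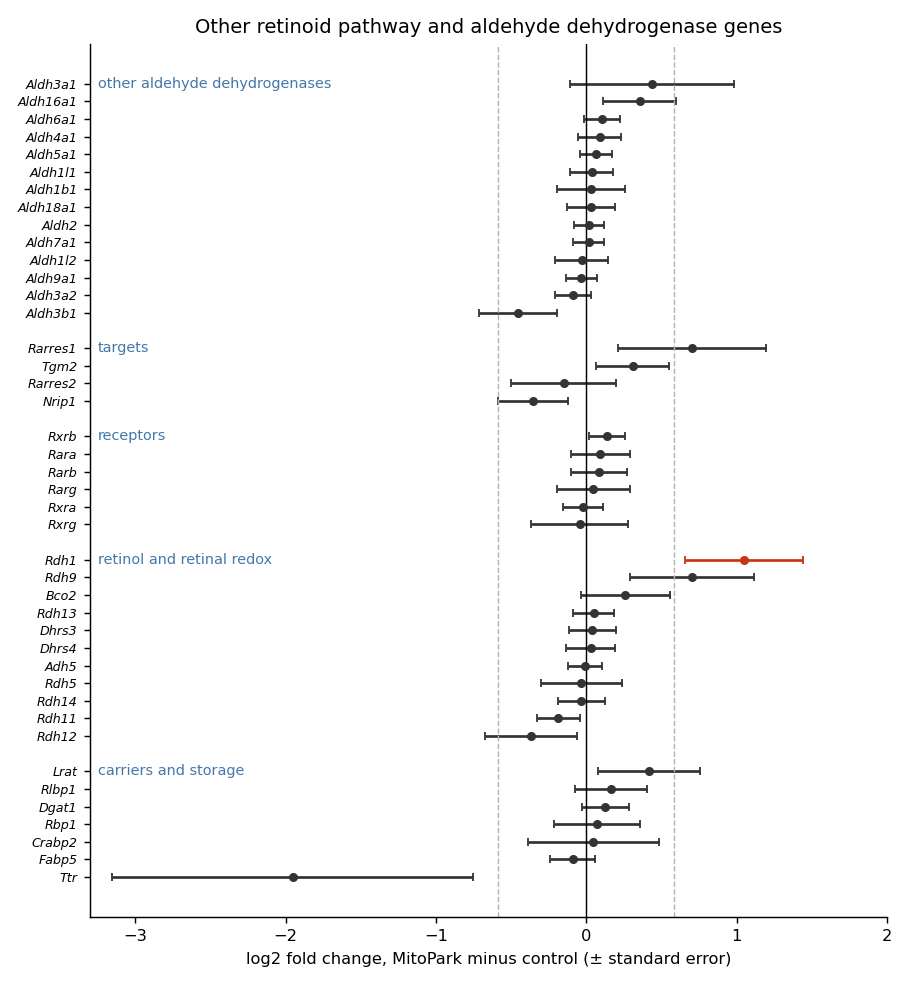
Log2 fold change (x axis, MitoPark minus control, ± standard error) of 28 tested genes of the retinoid pathway and 14 other aldehyde dehydrogenase genes (y axis, grouped by role), with the 1.5-fold cutoffs as dashed lines. Rdh1, in red at 1.05, is the 1 gene that passed both cutoffs, and Ttr has the widest error.

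With all 6 mice, markers of other cells in the tissue were called in no list other than the DAergic genes. The median log2 fold change was 0.159 for leptomeningeal fibroblasts, -0.0245 for choroid plexus, -0.0248 for endothelium, 0.126 for astrocytes, 0.0372 for oligodendrocytes, 0.196 for microglia, 0.136 for striatal projection neurons and 0.198 for GABA neurons. With a mouse left out, the median changed sign for leptomeningeal fibroblasts, choroid plexus, endothelium and oligodendrocytes, the last from -0.17 to 0.47. No listed marker of these cells was at 0 in all mice.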

How the data were processed

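Polyadenylated RNA from the SN of 3 MitoParks and 3 littermate controls was sequenced. The authors mapped reads to UCSC transcripts with Bowtie2 2.1.0 and deposited expected counts per gene, estimated with RSEM 1.2.15 (versions from the submitters' processing notes) and not normalized. Those notes name a human genome build, so coordinates given are those of the RefSeq sequences. The table had 0 columns of no mapped sample.

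Here the expected counts were rounded, genes were kept where either group averaged more than 1 CPM, and edgeR 4.0.16 (R 4.3.3) fitted TMM-normalized counts with a quasi-likelihood model of the 2 groups, with the cutoffs and low-count filter of the study's methods. Adjustment for multiple tests was by Benjamini-Hochberg across the tested genes, and other p-values are unadjusted. Exact permutation tests used log2(CPM + 0.1). The procedure was tested on simulated data. Nothing says whether mice came from separate litters, so p-values measure the spread between these mice, and without molecular identifiers counts are not of single molecules. In either group no pair of mice agreed within sampling noise (chi-square per degree of freedom 9.68 or more). A level of 3 counts corresponds to 0.285 to 0.365 CPM.

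The retinoid genes and lists were chosen with earlier results of these data known. Genes named are the 9 retinoid genes, listed pathway and aldehyde dehydrogenase genes with an unadjusted p below 0.05 or groups that did not overlap, the most abundant gene of each role by the mean over all mice, Tfam, Slc6a3, Th and Ddc, and the 3 genes with the highest r to each retinoid gene. Foxa1, Pitx3, Ttr, Nrip1, Cyp26a1 and Cyp26c1 were named after their values were seen. Of the listed symbols, 2 were found through an older name. Alternatives were edgeR's exact and likelihood ratio tests, robust dispersion, DESeq2 1.42.0, limma-voom (limma 3.58.1), 3 other normalizations, 3 other filters, counts left unrounded, a block for the replicate number, and fits without each mouse, with the cell type lists without each mouse and the choroid plexus sum without Ttr added after seeing the data. Sequences were aligned with Biopython 1.88, and transcripts came from GENCODE M21.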

Additional observations from a re-analysis of the deposited data

How the results depend on the processing

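The number of retinoid genes past both cutoffs was 1. It was 0 with the filterByExpr filter and with a filter of CPM above 1 in at least 3 mice, neither of which kept Aldh1a7 among the genes tested, and ranged from 0 to 2 with each mouse left out. For the pathway list it ranged from 0 to 2, and for all tested genes from 62 (without MitoPark 3) to 219 (without littermate control 3), against 84 with all mice and 176 without a filter on low counts, where more genes were tested. Signs changed with a mouse left out for Aldh1a1 (-0.72 to 0.27), Aldh1a2 (-0.18 to 0.41), Rdh10 (-0.14 to 0.0725), Crabp1 (-0.61 to 0.36) and Stra6 (-0.52 to 0.0712), but not for Aldh1a7 (-3.55 to -1.17), Cyp26b1 (0.42 to 0.89) or Rbp4 (-0.52 to -0.08). Crabp1 also changed sign with limma-voom (0.85), and the cause was not tested. Aldh1a1 relative to DAergic genes stayed above 0 in all 10 alternatives, from 0.133 to 0.348.

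Same-numbered mice of the 2 groups had correlated deviations of 0.307, -0.0738 and 0.244, and 4 of 6 mice correlated best with their own number. Since 1 of 3 pairs was below 0.1 and the labels tie the numbers to nothing, they were not taken as a pairing. With the replicate number as a block, 126 genes in all and 2 retinoid genes, Aldh1a7 and Cyp26b1 (0.61, unadjusted p = 0.0311), passed the cutoffs, and Crabp1 was at 0.26. Depth limits Aldh1a3, Aldh1a7, Stra6 and Rbp4 most, with fewer than 50 counts per mouse.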

Other observations

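Rxrg, the gene of a retinoid X receptor, was named after its values were seen. It gave 18.8, 18.9 and 7.13 CPM among littermate controls 1, 2 and 3, against 17.2, 12.8 and 13.5 CPM among MitoParks 1, 2 and 3, and it was not called. Littermate control 3 was the lowest mouse, as it was for Crabp1 and Gpr50, while the same mouse was the highest for Aldh1a1, Th and Ddc. Rdh9, whose product belongs to the same family as that of Rdh1, was highest in the same mouse as Rdh1, MitoPark 3, at 4.30 CPM, against 1.34 to 2.02 CPM in the other mice. Of the 150-base stretches of its transcript, 86.0% occurred in other genes of the family, so its counts are uncertain.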
